A study of Mus musculus with 30 samples.

Results

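Chromatin accessibility was examined at the loci of 8 receptors that set how strongly a T cell answers its antigen: Tigit, Pdcd1, Lag3, Havcr2, Cd96, Cd226, Btla and Cd160. A region of open chromatin, or peak, was counted to a locus when the nearest protein-coding gene body lay within 100 kb and was one of these genes, whatever the peak's signal. The rule found 74 of the 69316 peaks: 15 at Tigit, 11 at Pdcd1, 7 at Lag3, 4 at Havcr2, 9 at Cd96, 16 at Cd226, 10 at Btla and 2 at Cd160. Of these, 46 overlapped the gene body and 28 lay outside it, and Tigit peaks 1 and 2 lay in the body of Zbtb20 as well. Peaks are numbered along the chromosome within a locus, every one is 401 bp wide, and coordinates are mm10.

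The series asked how Foxp3, the transcription factor that defines regulatory T cells (Treg), and BATF, an AP-1 family factor, shape chromatin in effector Treg. The labels list 30 mouse samples in 15 groups of 2 libraries, and 26 libraries in 13 groups were analysed here. The Foxp3KO Treg (Foxp3fs101) and their control are not among these, and 4 libraries that may be theirs are described only at the end. Cells came from spleen and lymph nodes, and the strain is given as C57BL6/J for all but the DKO groups. A human CD2 reporter at the Foxp3 gene (Foxp3-IRES-hCD2) marked Treg in every group. BATFKO Treg were CD4+hCD2+ cells of the genotype Foxp3-IRES-hCD2.Batf-/-, and WT Treg were the same sort from Foxp3-IRES-hCD2 mice. Foxp3-IRES-hCD2 mice also gave effector Treg (eTreg, CD4+hCD2+CCR7loCD62Llo), central Treg (cTreg, CD4+hCD2+CCR7hiCD62LhiCD44lo), effector conventional cells (Teff, CD4+hCD2-CCR7loCD62Llo), naive cells (Tnaive, CD4+hCD2-CCR7hiCD62LhiCD44lo) and unseparated conventional cells (Tconv, CD4+hCD2-). Foxp3R397W Treg were CD4+hCD2+GFP- cells of Foxp3R397W-IRES-hCD2/Foxp3-IRES-GFP mice, in which the hCD2-marked allele carries an amino acid change in the DNA-binding forkhead domain. Their control was the same sort from Foxp3WT-IRES-hCD2/Foxp3-IRES-GFP mice. The last 4 groups were DKO Treg, Foxp3KO-IRES-hCD2.Batf-/-, sorted as CD4+hCD2+ cells that were CD45.2+CD45.1- and positive for GFP and Thy1.1. They were freshly sorted and carried Foxp3BATFRV, BATFRV, Foxp3RV or mockRV, so both deletions were shared by all 4, the mockRV control included. RV is not spelled out in the labels, and neither are ages or pooling.

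Tigit binds poliovirus receptor and related nectins on other cells and dampens T cell activation. Cd226 binds the same ligands and does the opposite, as a costimulatory receptor, and Cd96 is a further member of that family. Pdcd1 encodes PD-1, the receptor of PD-L1 and PD-L2. Havcr2 encodes TIM-3, and Lag3 a CD4-like receptor of MHC class II. Btla and Cd160 both bind the TNF receptor family member HVEM. In Treg, Tigit, Pdcd1, Lag3 and Havcr2 are known chiefly as surface proteins of activated or effector cells, whereas Btla is typical of naive lymphocytes. Accessible sites away from a gene start are commonly regulatory elements, so a locus can gain signal at some sites while its promoter stays open throughout.

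The promoter windows of 4 loci are printed because they show which start sites lie inside a measured peak and differ in how variable that peak was. Each runs 250 bases before to 50 bases after the annotated start, on the gene's own strand, from RefSeq (GRCm38.p6, which is mm10). Capitals mark matches, on either strand, to AP-1 (TGANTCA), RUNX (TGTGGT), forkhead (TGTTTAC), or ETS (AGGAAG) letters or to an IRF element (GAAA, any 2 bases, GAAA), and no matches overlap in the windows shown.
Havcr2, chr11:46454681-46454980, plus strand, 300 of 300 bases inside Havcr2 peak 1: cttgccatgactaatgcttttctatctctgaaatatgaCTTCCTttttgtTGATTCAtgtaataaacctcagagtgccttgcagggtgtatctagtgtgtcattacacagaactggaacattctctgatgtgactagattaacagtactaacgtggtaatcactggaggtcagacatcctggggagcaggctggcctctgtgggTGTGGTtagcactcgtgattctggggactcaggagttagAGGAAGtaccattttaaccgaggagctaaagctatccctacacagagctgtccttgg
Tigit, chr16:43664135-43664434, minus strand, 202 bases inside Tigit peak 9: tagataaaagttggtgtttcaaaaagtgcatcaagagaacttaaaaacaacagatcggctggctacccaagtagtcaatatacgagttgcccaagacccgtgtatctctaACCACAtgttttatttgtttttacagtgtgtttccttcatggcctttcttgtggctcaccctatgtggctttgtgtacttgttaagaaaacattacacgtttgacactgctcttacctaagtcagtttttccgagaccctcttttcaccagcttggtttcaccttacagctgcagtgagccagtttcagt
Pdcd1, chr1:94052504-94052803, minus strand, 241 bases inside Pdcd1 peak 4: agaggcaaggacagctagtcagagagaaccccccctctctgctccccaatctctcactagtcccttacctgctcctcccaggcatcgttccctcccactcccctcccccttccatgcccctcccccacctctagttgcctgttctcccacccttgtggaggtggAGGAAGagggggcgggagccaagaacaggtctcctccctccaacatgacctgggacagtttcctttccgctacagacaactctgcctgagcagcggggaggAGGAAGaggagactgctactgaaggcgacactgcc
Btla, chr16:45224087-45224386, plus strand, 300 bases inside Btla peak 1: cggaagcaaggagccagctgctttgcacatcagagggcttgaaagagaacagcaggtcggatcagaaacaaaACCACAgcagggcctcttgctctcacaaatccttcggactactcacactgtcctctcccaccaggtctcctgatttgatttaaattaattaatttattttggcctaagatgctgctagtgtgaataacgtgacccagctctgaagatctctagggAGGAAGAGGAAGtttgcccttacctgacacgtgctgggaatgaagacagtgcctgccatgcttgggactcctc
Of 32851 RefSeq windows of this length, 7.81% held an AP-1 match, 16.8% a RUNX match, 3.65% a forkhead match, 35.4% an ETS match and 3.44% an IRF match. The Havcr2 window held 1 AP-1, 1 RUNX and 2 ETS matches, the Tigit window 1 RUNX match, the Pdcd1 window 2 ETS matches and the Btla window 1 RUNX and 2 ETS matches. A match describes the letters only. Windows were matched for 6 of the 8 genes, and no genome was used, so the sequences of the distal peaks are not shown.

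Values below are the deposited normalised scores, which are whole reads per peak times 1 factor per library, given for library 1 and library 2 of a group. Changes are differences of log2(score + 1) with their SE from limma, and a peak was called at a Benjamini-Hochberg adjusted p under 0.05 over all 69316 peaks. Because of the added 1, changes at low scores come out too small. The libraries held 3716499 to 25462278 reads in peaks (median 9447877), and the 74 receptor peaks together held 5391 to 20800 of them. Nothing in the labels says that the libraries of a group came from separate animals, so p-values measure only the spread between them, which may be technical. The titles give ATAC-seq for the steady-state and BATFKO groups and omniATAC-seq, with another lysis and transposase, for the Foxp3R397W pair and the DKO groups. Levels were compared only within a protocol, except in the choice of the most variable peaks and in the correlations over all libraries given further below. In bulk samples a smaller share of cells with an open site and less signal per cell cannot be told apart.

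The names of 12 libraries are in doubt. A second deposited table holds 18 of the 26 libraries, recognised by nearly identical values at 4478 peaks shared to the base, and names only 6 of them alike (WT Treg, BATFKO Treg and Tconv). The libraries used here as eTreg and cTreg are named there as the control of Foxp3R397W Treg and as Foxp3R397W Treg. Those used here as Teff and Tnaive are named Foxp3KO Treg and its WT Treg control, and those used here as Foxp3R397W Treg and its control are named eTreg and cTreg. Peaks at genes that the labels themselves fix bear on this. A Foxp3 peak (chrX:7583922-7584322) had mean scores of 7.83 ± 0.00797 in Teff and 5.17 ± 5.51 in Tnaive, against 379 ± 18.8 in WT Treg and 9.27 ± 6.18 in Tconv (SD, n = 2 each). The Tnaive libraries, a WT Treg control under the other names, thus stood near Tconv and far below WT Treg. A peak at Ccr7 (chr11:99155012-99155412), whose protein was used in the sort, had 137 ± 6.91 in eTreg and 438 ± 19.8 in cTreg, and 176 ± 31.8 in Teff and 552 ± 42.6 in Tnaive. In Foxp3R397W Treg and its control, which the other table calls eTreg and cTreg, it had 808 ± 23.4 and 605 ± 151. The mean of eTreg, sorted as CCR7lo, was thus below that of cTreg under the names used here and above it under the other names. A Batf peak (chr12:85686411-85686811) was at 0 in both BATFKO libraries and at 289 ± 33.4 in WT Treg. The DKO libraries are in the 26-library table only. Results on eTreg, cTreg, Teff, Tnaive and Foxp3R397W Treg hold under the names of that table. Counts of calls and the changes of most leading receptor peaks are also given under the other names, while locus means, marker sums and counts over other gene lists are given under the names of the 26-library table only.

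**Figure D1:**
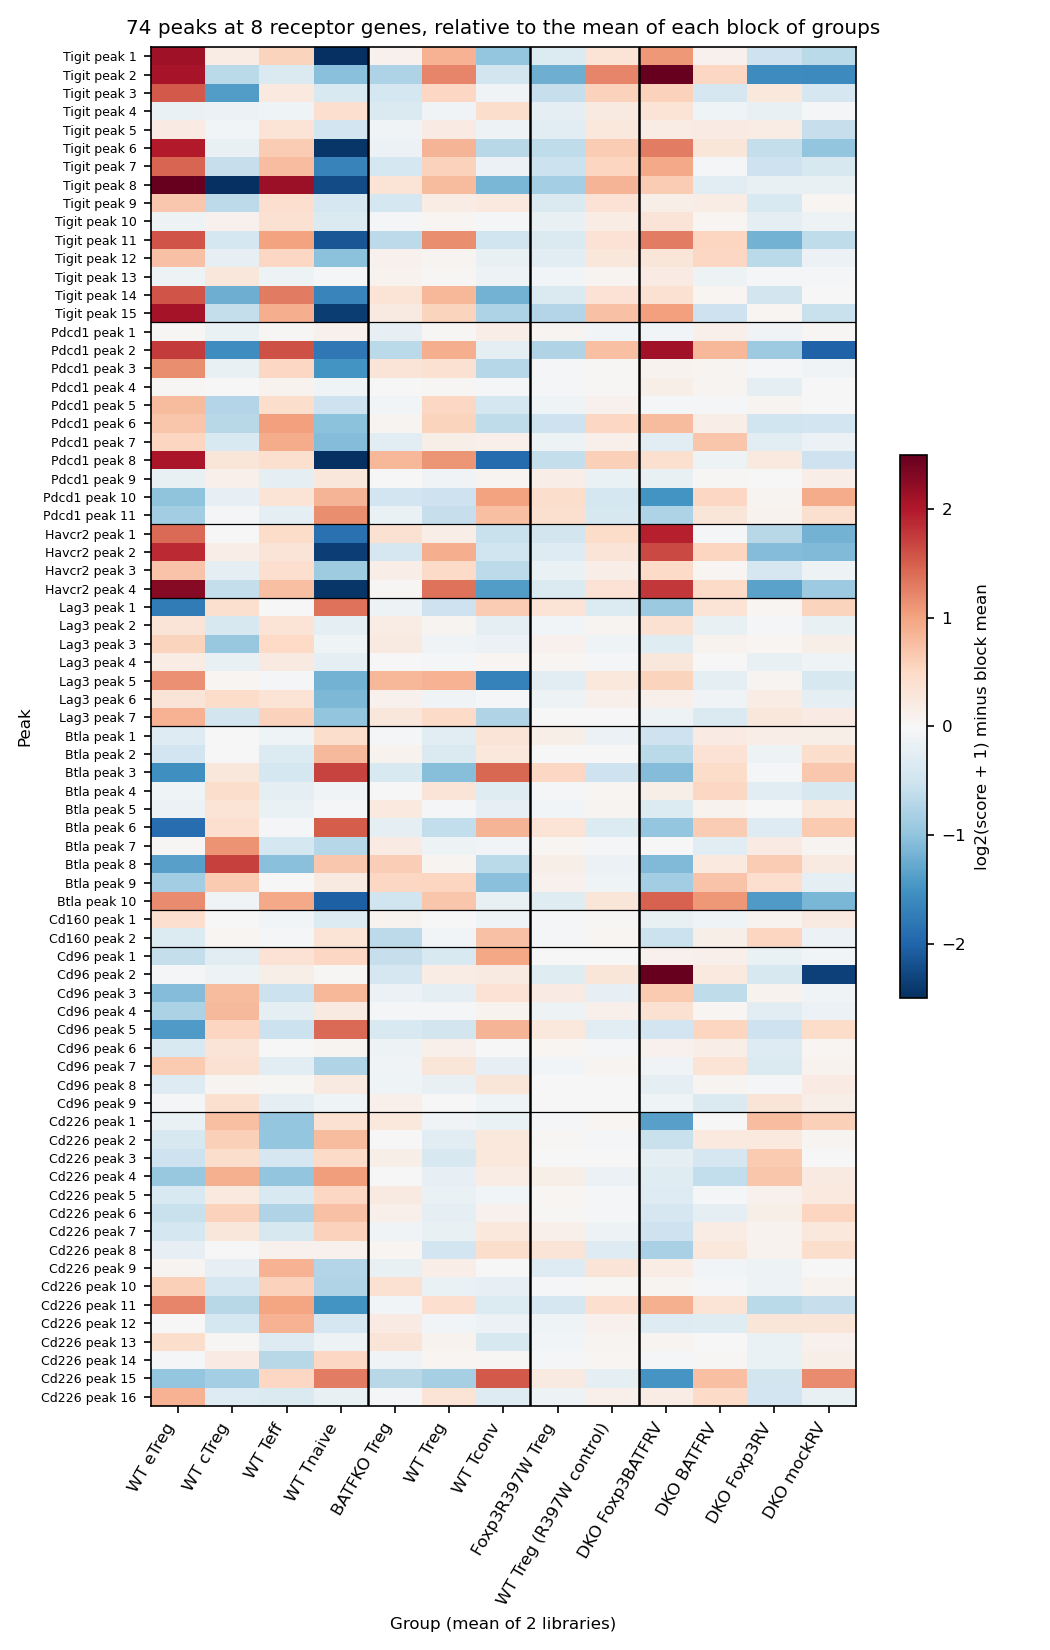
Accessibility of the 74 receptor peaks (rows, grouped by gene) in 13 groups (columns). Colour is the group mean of log2(score + 1) minus the mean of that peak over its block of groups, and blocks are separated because they were compared only within. Most Tigit rows are highest in eTreg and Teff, and in DKO Treg with Foxp3BATFRV, while most Btla and Cd226 rows are highest in cTreg and Tnaive.

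The loci split by receptor when cells took on an effector phenotype. In eTreg against cTreg, 26 of the 74 receptor peaks were called higher and 19 lower, where 19.7% and 17.4% of all peaks were called (37.1% in either direction). In Teff against Tnaive, 30 were higher and 19 lower, against 20.7% and 19.6% of all peaks (40.3% together). Tigit, Pdcd1 and Havcr2 took the larger part of the gains: 11 of 15 Tigit peaks, 6 of 11 Pdcd1 peaks and 3 of 4 Havcr2 peaks were higher in eTreg, with 0, 1 and 0 lower. Btla, Cd96 and Cd226 went mostly the other way, with 6 of 10, 4 of 9 and 7 of 16 peaks lower in eTreg and 1, 0 and 2 higher. Lag3 was mixed, with 3 of 7 higher and 1 lower, and neither Cd160 peak was called in either lineage. In Teff, 11 of 15 Tigit, 6 of 11 Pdcd1, 4 of 4 Havcr2 and 4 of 7 Lag3 peaks were higher, with 0, 2, 0 and 1 lower. Of the other loci, 5 of 10 Btla, 2 of 9 Cd96 and 9 of 16 Cd226 peaks were lower in Teff, and 1, 0 and 4 higher. The comparisons share no library: 22 receptor peaks were higher in both, which is 84.6% of those higher in eTreg and 73.3% of those higher in Teff (70.4% and 66.8% over all peaks). Another 13 were lower in both, 68.4% of each set, and 0 went in opposite directions. With each library left out in turn, 20 of the higher and 10 of the lower eTreg calls held every time, and 23 and 13 of the Teff calls. Under the names of the other deposited table none of these 45 and 49 calls held, and 10 and 15 receptor peaks were called.

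**Figure D2:**
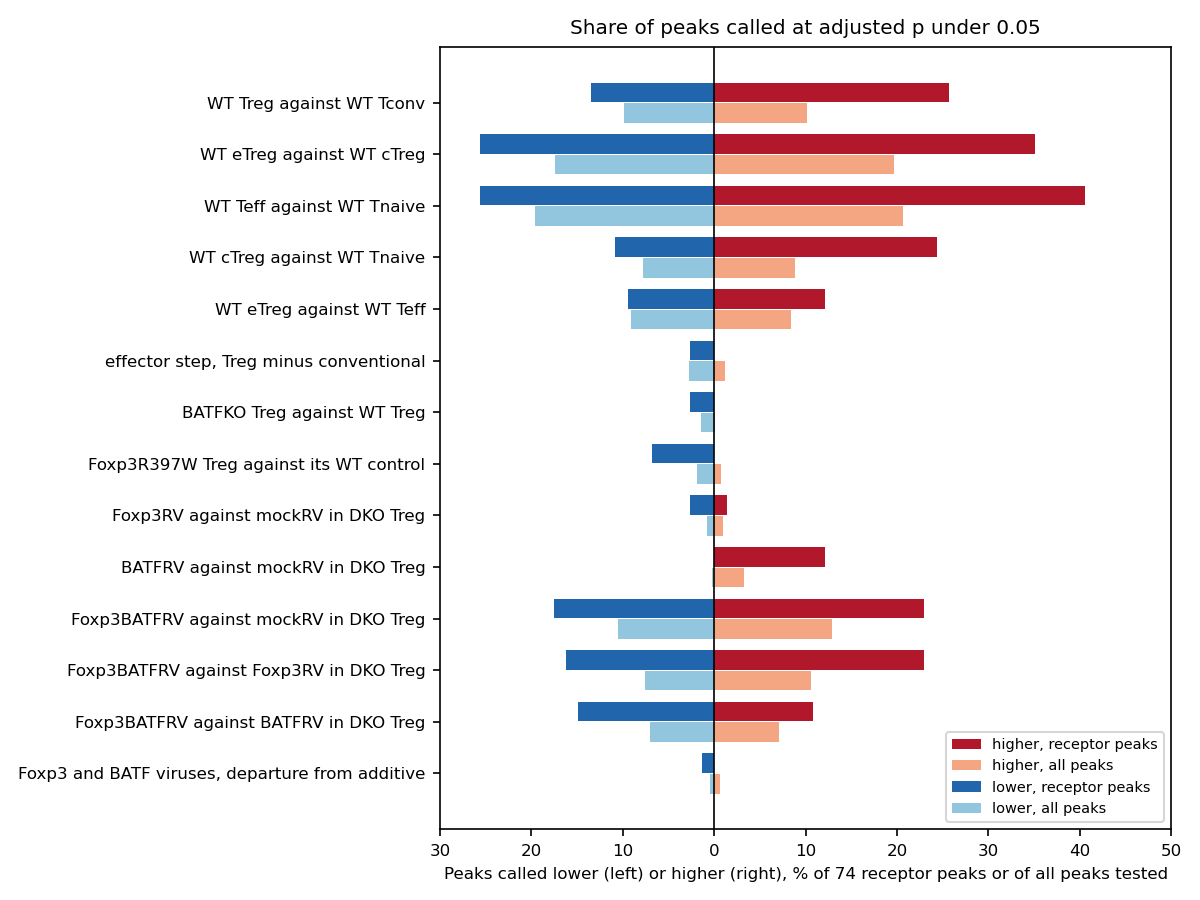
Share of the 74 receptor peaks (percent, bars) called higher (right of 0) or lower (left of 0) in each of 14 comparisons, beside the share of all 69316 peaks called the same way. Both effector comparisons have the longest bars in either direction. To the right of 0, BATFKO, Foxp3R397W, Foxp3RV and the pair of interaction tests have the shortest or none.

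The largest gains of the 74 peaks in both effector comparisons were at Tigit. Tigit peak 8 (chr16:43661513-43661913), 2471 bp downstream of the gene start, had scores of 306 and 290.3 in eTreg, against 6.22 and 5.51 in cTreg. In conventional cells it had 222 and 168 in Teff, against 7.66 and 9.07 in Tnaive. Both effector pairs lay far above both resting pairs, with log2 changes of 5.45 ± 0.31 (SE), adjusted p = 1.4e-13, and 4.38 ± 0.31 (SE), adjusted p = 3.0e-12. Of the 6 Tigit peaks 10 to 15, all upstream of the gene, peaks 11, 12, 14 and 15 were called higher in both effector comparisons. Peak 13 was called in neither (-0.40 in eTreg and -0.11 in Teff), and peak 10 in Teff only. Tigit peak 11 (chr16:43694050-43694450), centred at -30066 bp from the start where minus means upstream, had 174 and 180.2 in eTreg, against 32.9 and 56.2 in cTreg, and 127 and 113 in Teff, against 10.2 and 15.5 in Tnaive. Tigit peak 15 (chr16:43701881-43702281), at -37897 bp, had 204 and 204 in eTreg, against 41.8 and 23.1 in cTreg, and 92.3 and 87.1 in Teff, against 7.66 and 9.07 in Tnaive. In both peaks the groups kept 1 order: eTreg highest, then Teff, then cTreg, with Tnaive lowest, and no library overlapped a library of the next group. Within the gene, Tigit peak 6 (chr16:43655178-43655578) had 148 and 169 in eTreg, against 32.9 and 36.4 in cTreg, a log2 change of 2.16 ± 0.28 (SE), adjusted p = 3.6e-07. Teff had 52.3 and 71.4, against 6.39 and 6.48 in Tnaive, a change of 3.06 ± 0.28 (SE), adjusted p = 4.8e-10. The start itself moved less. Tigit peak 9 (chr16:43664233-43664633), which covers most of the printed promoter window, had 902 and 844 in eTreg, against 352 and 343 in cTreg, and 843 and 643 in Teff, against 489 and 342 in Tnaive. Its log2 changes were 1.33 ± 0.22 (SE), adjusted p = 1.8e-05, and 0.85 ± 0.22 (SE), adjusted p = 0.0026. The start was already open in the resting cells, in which peak 8 had almost no reads. Under the names of the other table, peak 8 changed by -1.74 in eTreg against cTreg and by -1.65 in Teff against Tnaive, and peak 9 by -0.75 and -0.74.

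**Figure D3:**
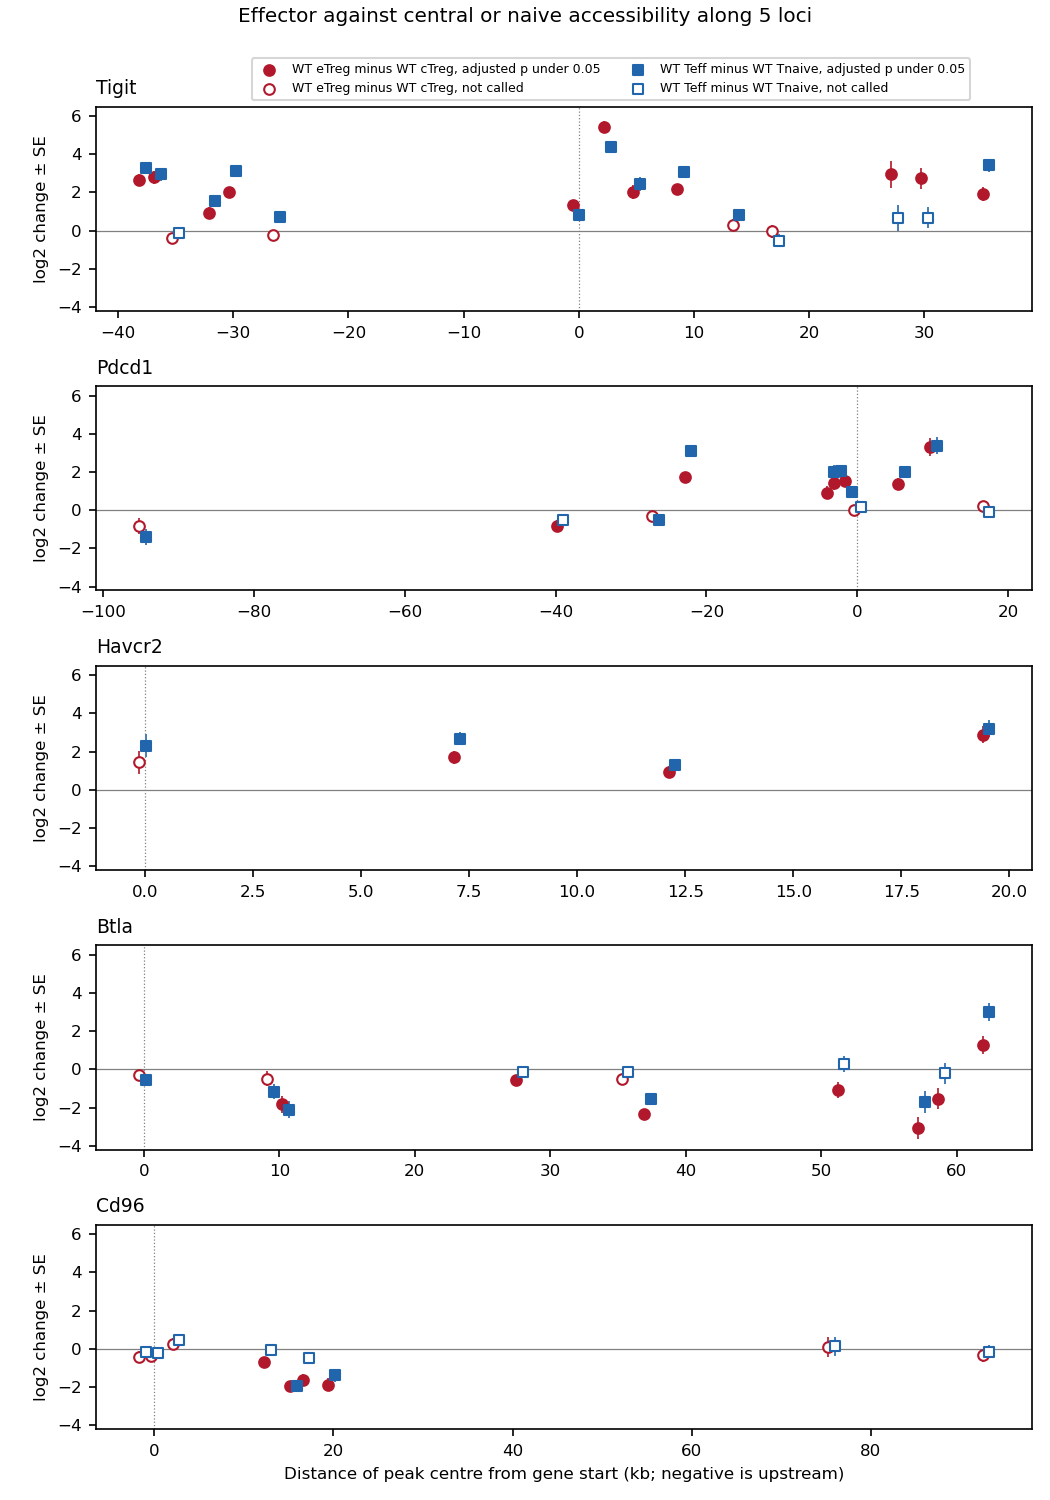
Log2 change of each peak (y axis, ± SE) against the distance of its centre from the gene start (x axis, kb, upstream negative) at Tigit, Pdcd1, Havcr2, Btla and Cd96. Red circles are eTreg minus cTreg, blue squares Teff minus Tnaive, and filled symbols passed adjusted p under 0.05. The largest changes at Tigit, Pdcd1 and Havcr2 lie away from the start, such as Tigit peak 8 at 5.45 and 4.38 and Havcr2 peak 4 at 2.88 and 3.20. The Havcr2 start changed by 2.31 in Teff and was not called in eTreg.

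At Pdcd1 the start was not called in eTreg, and sites inside and upstream of the gene were. Pdcd1 peak 4 (chr1:94052344-94052744), at the start, had 300.3 and 297 in eTreg, against 282 and 305 in cTreg, and was not called (log2 change 0.03 ± 0.18 (SE), adjusted p = 0.93). Pdcd1 peak 2 (chr1:94042269-94042669), inside the gene at 10084 bp from the start, had 119 and 158 in eTreg, against 11.6 and 14.3 in cTreg, and 101 and 149.7 in Teff, against 21.7 and 5.18 in Tnaive. The changes were 3.31 ± 0.46 (SE), adjusted p = 1.3e-06, and 3.39 ± 0.46 (SE), adjusted p = 7.3e-07. Effector cells of both lineages had overlapping scores at this site, and resting cells of both had scores several times lower. Pdcd1 peak 8 (chr1:94074782-94075182), upstream at -22429 bp, had 285 and 281 in eTreg, against 80.9 and 87.1 in cTreg, and 85.3 and 94.9 in Teff, against 11.5 and 7.77 in Tnaive. Here the cTreg libraries already stood at the level of the Teff libraries, and the eTreg libraries stood above all others. The effector step of peak 8 was 1.74 in Treg and 3.12 in conventional cells, and the difference of the steps was -1.38 ± 0.37 (SE), adjusted p = 0.029. That call was lost when any of 7 of the 8 libraries was left out. Closer upstream, Pdcd1 peaks 5, 6 and 7 were called higher in both effector groups, by 1.53, 1.40 and 0.92 in eTreg and by 0.96, 2.04 and 2.01 in Teff. The farthest strong peak went down. Pdcd1 peak 10 (chr1:94091765-94092165), at -39412 bp, had 294 and 295 in eTreg, against 433 and 614 in cTreg, a change of -0.81 ± 0.27 (SE), adjusted p = 0.020. It had 759 and 748 in Teff, against 1066 and 1062 in Tnaive, and was not called there. Under the other names, peak 2 changed by -1.55 (adjusted p = 0.039) in eTreg against cTreg and by -1.18 (adjusted p = 0.14) in Teff against Tnaive.

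Havcr2, a locus with little signal in resting cells, had more in effector cells of both lineages. The mean score per peak was 75.4 ± 2.31 in eTreg and 22.5 ± 3.24 in cTreg, and 36.1 ± 2.25 in Teff and 8.69 ± 2.36 in Tnaive (SD, n = 2 each). Havcr2 peak 4 (chr11:46474194-46474594), 19463 bp downstream of the start, had 107 and 108 in eTreg, against 10.7 and 17.6 in cTreg, and 32.2 and 42.1 in Teff, against 1.28 and 6.48 in Tnaive. Its changes were 2.88 ± 0.44 (SE), adjusted p = 4.3e-06, and 3.20 ± 0.44 (SE), adjusted p = 7.0e-07. The Treg groups stood above the conventional groups at matched states. Havcr2 peak 2 (chr11:46461948-46462348) had 85.3 and 67.9 in eTreg, against 19.6 and 26.5 in cTreg, and 30.5 and 21.5 in Teff, against 3.83 and 2.59 in Tnaive. Unlike the Tigit and Pdcd1 starts, the Havcr2 start was itself faint at rest: Havcr2 peak 1, which holds the whole printed window, had 52.1 and 55 in eTreg, against 24 and 15.4 in cTreg, and 22.6 and 32.3 in Teff, against 1.28 and 13 in Tnaive. It was called in Teff (2.31 ± 0.60 (SE), adjusted p = 0.0028) and not in eTreg (1.43 ± 0.60 (SE), adjusted p = 0.063). Under the other names, peaks 2 and 4 changed by -0.69 and -0.78 in eTreg against cTreg.

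Lag3 sites moved both ways. Lag3 peak 1 (chr6:124900383-124900783), outside the gene body, fell to 31 and 15.2 in eTreg, against 85.3 and 119 in cTreg, and to 64.4 and 87.1 in Teff, against 185 and 209 in Tnaive. The changes were -2.16 ± 0.28 (SE), adjusted p = 4.4e-07, and -1.38 ± 0.28 (SE), adjusted p = 0.00021. Of the other 6 Lag3 peaks, 2, 3 and 7 were higher in eTreg and 4, 5 and 6 were not called, with peak 3 (chr6:124901848-124902248) at 45.4 and 57.4 in eTreg, against 13.3 and 22 in cTreg, and peak 7 (chr6:124911546-124911946) at 59.8 and 62 in eTreg, against 28.4 and 19.8 in cTreg. Peaks 1 and 3 lie close together and changed in opposite directions in eTreg, by -2.16 and 1.52. In Teff, peaks 6 and 7 were higher by 1.47 and 1.57, and peak 3 was not called (0.62 ± 0.29 (SE), adjusted p = 0.091). Under the other names, peak 1 changed by 0.64 in eTreg against cTreg (adjusted p = 0.18). The nearest-gene rule does not show which gene a site outside the Lag3 body serves. Both Cd160 peaks, the start peak 2 and peak 1, had reads in all groups, with locus means of 69.8 ± 4.14 in WT Treg and 87.1 ± 10.7 in Tconv (SD, n = 2 each).

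Most of the called Btla peaks were lower in effector cells. Btla peak 6 (chr16:45261303-45261703), beyond the gene's end, had 65.4 and 70.2 in eTreg, against 324 and 364 in cTreg, and 265 and 243 in Teff, against 739 and 729 in Tnaive. The changes were -2.32 ± 0.22 (SE), adjusted p = 1.9e-09, and -1.53 ± 0.22 (SE), adjusted p = 1.8e-06. All 4 groups were separate at this site, in the order Tnaive, cTreg, Teff and eTreg. Btla peak 3 (chr16:45234570-45234970), inside the gene, had 11.1 and 9.36 in eTreg, against 40.9 and 36.4 in cTreg, and 27.9 and 18.6 in Teff, against 98.3 and 108 in Tnaive. Btla peak 8 (chr16:45281524-45281924) had 5.54 and 4.68 in eTreg, against 51.5 and 48.5 in cTreg, a change of -3.06 ± 0.59 (SE), adjusted p = 0.00012. One site ran the other way. Btla peak 10 (chr16:45286315-45286715), the farthest from the gene, had 48.7 and 62 in eTreg, against 24 and 20.9 in cTreg, and 53.1 and 41.1 in Teff, against 8.94 and 2.59 in Tnaive, with changes of 1.26 ± 0.48 (SE), adjusted p = 0.038, and 3.00 ± 0.48 (SE), adjusted p = 7.9e-06. The start, Btla peak 1, had 250.4 and 298 in eTreg, against 395 and 293 in cTreg, and was not called there (-0.32 ± 0.19 (SE), adjusted p = 0.20). Under the other names, peaks 3 and 8 changed by 1.03 and 0.27 in eTreg against cTreg.

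At Cd226 and Cd96, which share ligands with Tigit, called peaks were more often lower than higher in effector cells, although 4 Cd226 peaks were higher in Teff and only 2 of 9 Cd96 peaks were lower there. Cd226 peak 4 (chr18:89193648-89194048) had 67.6 and 58.5 in eTreg, against 198 and 255 in cTreg, and 58.3 and 62.6 in Teff, against 255 and 250.1 in Tnaive, with changes of -1.82 ± 0.35 (SE), adjusted p = 0.00013, and -2.05 ± 0.35 (SE), adjusted p = 2.4e-05. Cd226 peak 1 (chr18:89159764-89160164), outside the gene body, had 332 and 325 in eTreg, against 618 and 624 in cTreg, and 191 and 188 in Teff, against 507 and 460.0 in Tnaive. Cd226 peaks 1 to 7 were all called lower in both effector comparisons. Cd226 peak 11 (chr18:89233582-89233982), inside the same gene, was higher in both: 295 and 297 in eTreg, against 88 and 68.3 in cTreg, and 226 and 281 in Teff, against 42.1 and 46.6 in Tnaive. The changes were 1.92 ± 0.25 (SE), adjusted p = 3.5e-07, and 2.48 ± 0.25 (SE), adjusted p = 2.8e-09. Cd226 peaks 9, 10 and 12 were higher in Teff as well, by 1.60, 1.34 and 1.28, and were not called in eTreg, where peak 16 was higher by 1.18. Cd96 peak 5 (chr16:46104501-46104901) had 49.9 and 83.1 in eTreg, against 228 and 282 in cTreg, and 99.3 and 144 in Teff, against 469 and 463 in Tnaive, changes of -1.96 ± 0.27 (SE), adjusted p = 1.0e-06, and -1.95 ± 0.27 (SE), adjusted p = 8.5e-07. The Cd96 start, peak 8, was not called in either, at -0.38 and -0.20. Set against each other within a library, the mean score of a Tigit peak over that of a Cd226 peak was 1.43 and 1.30 in eTreg, against 0.650 and 0.584 in cTreg, and 1.25 and 1.07 in Teff, against 0.429 and 0.403 in Tnaive. The effector libraries of each lineage lay above the resting ones. A ratio of 1 is no threshold, because the loci hold unlike sets of peaks. Under the other names, Cd226 peaks 4 and 11 changed by 0.30 and -0.89, and Cd96 peak 5 by 0.50, in eTreg against cTreg.

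Markers of other cells moved with these comparisons. All 10 genes of a CD8 T and NK cell list had peaks (52), whose summed score was 2962 to 3029 in eTreg, against 4642 to 4678 in cTreg, and 4126 to 4266 in Teff, against 6178 to 6456 in Tnaive. For myeloid cells 6 of 9 genes had peaks (23), with sums of 1073 to 1143 in eTreg, against 623 to 627 in cTreg, and 1155 to 1157 in Teff, against 801 to 937 in Tnaive. Csf1r, Adgre1 and S100a8 had none. For B cells 5 of 8 genes had peaks (18), with sums of 1316 to 1379 in eTreg, against 890 to 1036 in cTreg, and 812 to 826 in Teff, against 810 to 825 in Tnaive. Ms4a1 and Cd79a were among those with none. For erythroid cells 5 of 6 genes had peaks, with sums of 761 to 817 in eTreg, against 1042 to 1075 in cTreg, and 584 to 600 in Teff, against 1014 to 1179 in Tnaive. The part of these cells in the receptor results was not tested.

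Treg differed from conventional cells at many of the same sites. In WT Treg against Tconv, 19 of 74 receptor peaks were higher and 10 lower (10.1% and 9.92% of all peaks, 20% together). These sorts mix resting and effector cells in unknown shares. Comparing matched states, 18 were higher and 8 lower in cTreg against Tnaive (8.8% and 7.82% of all peaks, 16.6% together), and 9 and 7 in eTreg against Teff (8.4% and 9.07% of all peaks, 17.5% together). Pdcd1 peak 8, described above, had the largest gain: 121 and 146 in WT Treg, against 13.1 and 18.2 in Tconv, a change of 3.03 ± 0.26 (SE), adjusted p = 1.6e-09. Between cTreg and Tnaive it changed by 3.02 ± 0.26 (SE), adjusted p = 7.3e-10, and between eTreg and Teff by 1.64 ± 0.26 (SE), adjusted p = 3.7e-05. Cd226 peak 15 (chr18:89245568-89245968), inside the gene, was the 1 Cd226 peak called lower: 110.0 and 118 in WT Treg, against 524 and 675 in Tconv, a change of -2.37 ± 0.20 (SE), adjusted p = 6.9e-10. The same site had 135 and 159 in cTreg, against 682 and 604 in Tnaive, and 133 and 138 in eTreg, against 370.1 and 392 in Teff. In these 6 groups every Treg library lay below every conventional library at this site, whereas eTreg and cTreg overlapped. Btla peak 6 was lower in Treg as well, at 198 and 147 in WT Treg, against 413 and 543 in Tconv, and so was Pdcd1 peak 10, at 433 and 338 in WT Treg, against 1009 and 1172 in Tconv. Their changes were -1.47 ± 0.22 (SE), adjusted p = 1.3e-05, and -1.51 ± 0.27 (SE), adjusted p = 0.00018. At Tigit, 7 of 15 peaks were higher between WT Treg and Tconv, 7 between cTreg and Tnaive and 4 between eTreg and Teff, and 1 was lower in eTreg (peak 10, -0.50). Tigit peak 8 was called in WT Treg against Tconv (1.94) but not between cTreg and Tnaive, both of which were near the floor. Havcr2 peaks 2 and 4 were higher in Treg in all 3 comparisons, peak 2 by 1.41, 2.51 and 1.53 and peak 4 by 2.76, 1.84 and 1.52 in the order given above. The CD8 and NK marker sum was 3207 to 3289 in WT Treg, against 4594 to 4944 in Tconv. The myeloid sum was 685 to 730 in WT Treg, against 792 to 834 in Tconv, and the B cell sum 1051 to 1323, against 904 to 991 in Tconv. The erythroid sums overlapped, the sums of the matched states are given above, and the part of these cells was not tested. With each library left out in turn, 9 of the higher and 6 of the lower calls between WT Treg and Tconv held every time, 7 and 2 between cTreg and Tnaive, and 6 and 4 between eTreg and Teff. The count fell to 19 without WT Treg 1, and in cTreg against Tnaive to 13, 16 and 14 without cTreg 1, Tnaive 1 and Tnaive 2. The other table names the WT Treg and Tconv libraries alike, and 27 of the 29 calls between them were kept there. It called 35 receptor peaks in that comparison. Under its names 0 receptor peaks were called in cTreg against Tnaive and 0 in eTreg against Teff, which use other libraries there. In these, 2 and 0 of 72 matched ones had an unadjusted p under 0.05 in limma.

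**Figure D4:**
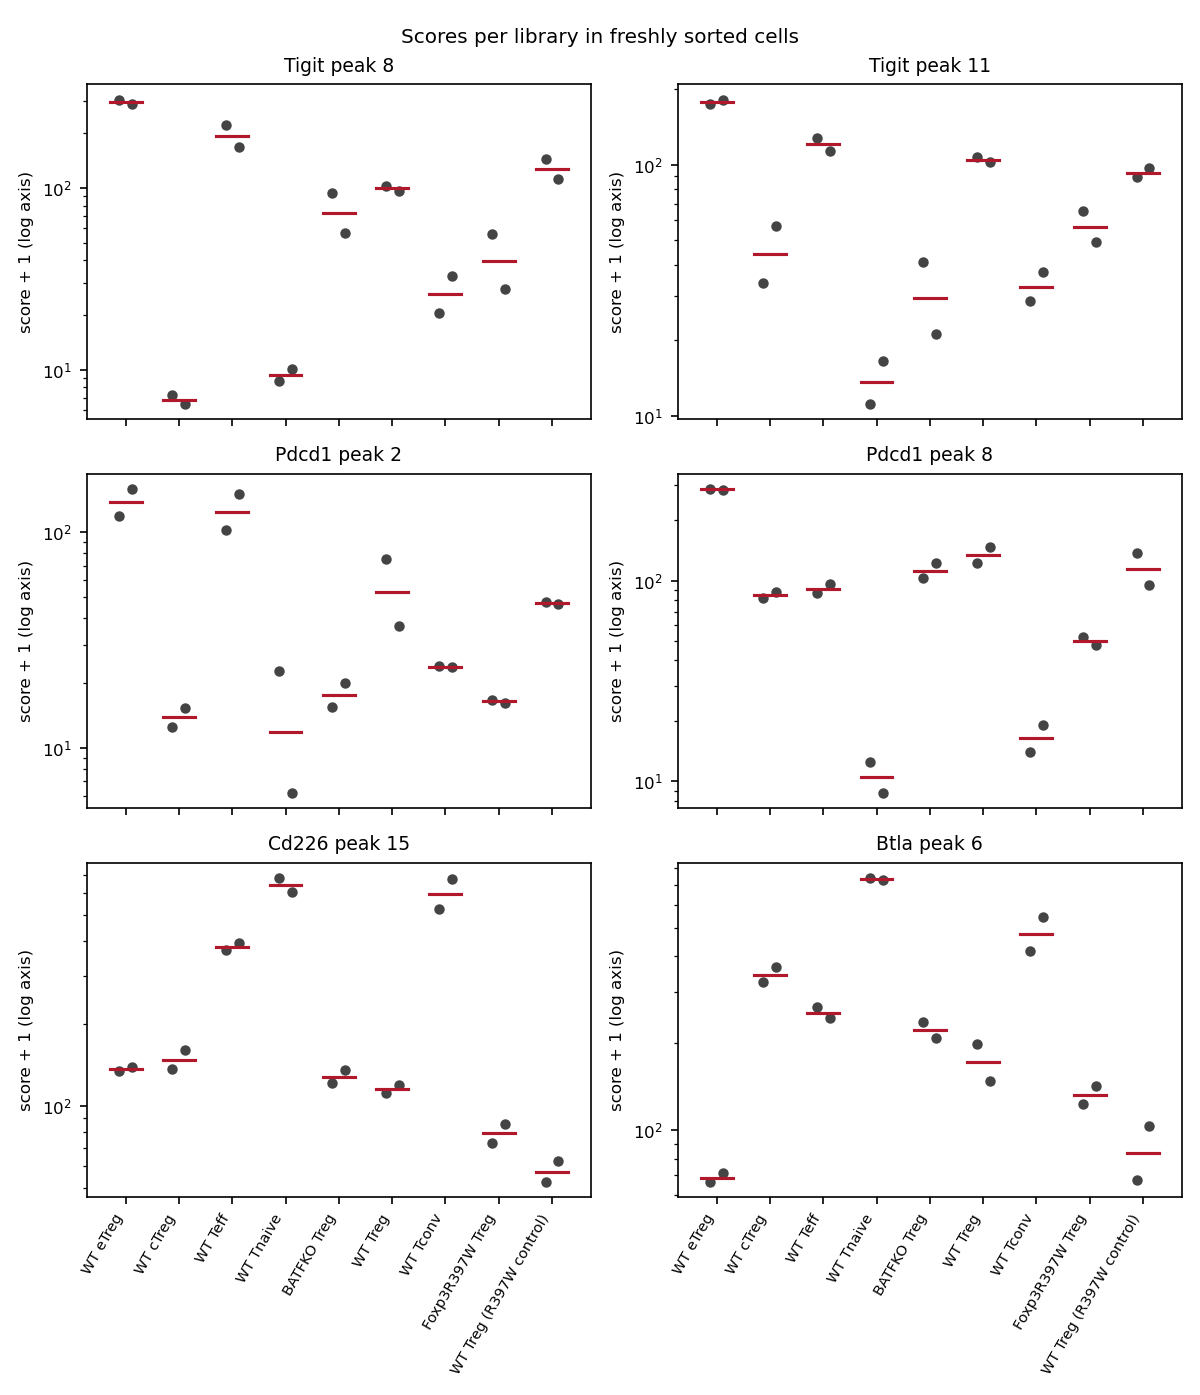
Score + 1 of 6 receptor peaks (log axis) in each library of 9 groups. Points are libraries and red lines geometric means. Tigit peaks 8 and 11 and Pdcd1 peak 2 are high in the eTreg and Teff libraries, Pdcd1 peak 8 is higher in eTreg, cTreg and WT Treg than in Tnaive and Tconv, Cd226 peak 15 is high in the conventional groups and Btla peak 6 is lowest in eTreg.

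Whether the effector step differed between lineages was tested as the eTreg minus cTreg change less the Teff minus Tnaive change. Of 74 peaks, 0 were called higher and 2 lower (1.18% and 2.72% of all peaks, 3.91% together): Pdcd1 peak 8 (above) and Tigit peak 10 (chr16:43690223-43690623). Tigit peak 10 had 448 and 435 in eTreg, against 522 and 524 in cTreg, and 583 and 672 in Teff, against 337 and 416 in Tnaive. It moved by -0.24 in Treg and 0.74 in conventional cells, a difference of -0.98 ± 0.24 (SE), adjusted p = 0.013. Without single libraries the count was between 0 and 3: 0 without eTreg 2 or Teff 2, 3 without Tnaive 1, and 1 without any of the other libraries. Tigit peak 10 was lost without eTreg 2, Tnaive 1 or Teff 2. For the other 72 peaks no difference between the lineages was called, which does not show that their steps were equal.

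BATFKO Treg had less open chromatin at 2 sites, one at Tigit and one at Havcr2. Of 74 receptor peaks 0 were higher and 2 lower (0.062% and 1.43% of all peaks, 1.49% together), and 11 had an unadjusted p under 0.05. Tigit peak 11 had 39.9 and 20.2 in BATFKO Treg, against 106 and 101 in WT Treg, a change of -1.83 ± 0.29 (SE), adjusted p = 0.00020. The BATFKO libraries lay below both WT libraries, and the call held with each library left out. Havcr2 peak 2 had 29.9 and 17.7 in BATFKO Treg, against 66 and 53.1 in WT Treg, a change of -1.33 ± 0.34 (SE), adjusted p = 0.035. This call was lost, leaving 1, without WT Treg 1, WT Treg 2 or BATFKO 2. Pdcd1 peak 2 had 14.4 and 18.9 in BATFKO Treg, against 74.5 and 35.7 in WT Treg, and Tigit peak 8 had 93 and 55.6, against 101 and 96 in WT Treg. Neither passed (log2 differences -1.59 ± 0.46 (SE), adjusted p = 0.091, and -0.45 ± 0.31 (SE), adjusted p = 0.86). Pdcd1 peak 8 stood at 102 and 121 in BATFKO Treg, against 121 and 146 in WT Treg, and was not called (-0.26 ± 0.26 (SE), adjusted p = 0.98). Both sites that fell without BATF were among those higher in eTreg and in Teff, as were 93.5% of the peaks of the whole table that fell in BATFKO Treg in the case of eTreg. Other tests called more, 5 receptor peaks with edgeR on the recovered reads and 8 after quantile scaling, all lower in BATFKO Treg. The other deposited table, which names these libraries alike, gave 4 lower. The CD8 and NK marker sum was 3498 to 3653 in BATFKO Treg, against 3207 to 3289 in WT Treg, and the myeloid sum 586 to 621 in BATFKO Treg, against 685 to 730 in WT Treg. The erythroid sum was 904 to 1026 in BATFKO Treg, against 810 to 892 in WT Treg, and the B cell sums overlapped. The part of these cells was not tested.

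Foxp3R397W Treg lost signal at 4 Tigit sites and at Pdcd1 peak 8. There were 0 higher and 5 lower receptor peaks (0.776% and 1.85% of all peaks, 2.63% together), and 19 had an unadjusted p under 0.05. Tigit peak 8 had 55.2 and 26.8 in Foxp3R397W Treg, against 143 and 112 in the control, a change of -1.69 ± 0.31 (SE), adjusted p = 0.0023. Tigit peak 15 had 33.8 and 42.7 in Foxp3R397W Treg, against 101 and 114 in the control, a change of -1.47 ± 0.28 (SE), adjusted p = 0.0029, and Tigit peak 6 had 34.9 and 28.9, against 71.3 and 84.9 in the control (-1.27 ± 0.28 (SE), adjusted p = 0.0097). Tigit peak 2 (chr16:43633985-43634385), which also lies in Zbtb20, had 4.50 and 5.65 in Foxp3R397W Treg, against 35.9 and 28.8 in the control (-2.45 ± 0.57 (SE), adjusted p = 0.014). In all 4 the mutant libraries lay below both control libraries. Pdcd1 peak 8 had 51.2 and 46.6 in Foxp3R397W Treg, against 136 and 93.6 in the control, a change of -1.19 ± 0.26 (SE), adjusted p = 0.0099. The Tigit start was not called, with 303 and 238 in Foxp3R397W Treg, against 536 and 365 in the control (-0.72 ± 0.22 (SE), adjusted p = 0.078), and Cd226 peak 15, which separated Treg from conventional cells, had 72 and 84.7 in Foxp3R397W Treg, against 51.4 and 61.5 in the control (0.47 ± 0.20 (SE), adjusted p = 0.26). All 5 peaks were among those higher in eTreg than in cTreg, as were 90.4% of the peaks of the whole table that fell in Foxp3R397W Treg. None of the 5 calls held through every left-out library. The edgeR test called 2 higher and 11 lower. The other table names these libraries eTreg and cTreg and gives the name Foxp3R397W to those used here as cTreg. With its names 21 receptor peaks were higher and 28 lower between Foxp3R397W Treg and the control, 49 in all. That comparison sets the cTreg libraries of this report against its eTreg libraries. All 5 peaks above were among the lower ones, which repeats their being higher in eTreg and is no check of the calls in Foxp3R397W Treg. The Foxp3R397W libraries and control of this report meet there as eTreg against cTreg, with 1 receptor peak called higher and 9 lower. Tigit peaks 8 and 2 changed by -1.74 and -2.66 there, and the Tigit start by -0.75 (adjusted p = 0.0063 in limma). These are the same libraries with a separate normalisation, so they are not independent. The CD8 and NK marker sum was 4847 to 4915 in Foxp3R397W Treg, against 4120 to 4469 in the control, the B cell sum 728 to 759, against 916 to 919 in the control, and the myeloid sum 830 to 968, against 1027 to 1087 in the control. The erythroid sums overlapped, and the part of these cells was not tested.

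In DKO Treg, which lack both factors, 9 receptor sites were called higher with BATFRV, and Foxp3RV moved few. Of those 9 calls, 2 held with each library left out in turn, at Pdcd1 peak 2 and Btla peak 4. Of 74 peaks, BATFRV gave 9 higher and 0 lower than mockRV (3.2% and 0.291% of all peaks, 3.49% together), and Foxp3RV gave 1 and 2 (1.01% and 0.814% of all peaks, 1.82% together). Foxp3BATFRV gave 17 higher and 13 lower (12.9% and 10.5% of all peaks, 23.3% together). These comparisons share the mockRV libraries, and only values are set side by side. Pdcd1 peak 2 had 39.8 and 58.7 with Foxp3BATFRV, 17.3 and 22.1 with BATFRV and 4.30 and 6.14 with Foxp3RV, against 1.05 and 2.93 with mockRV. The changes from mockRV were 4.12 ± 0.46 (SE), adjusted p = 8.0e-08 with Foxp3BATFRV, 2.85 ± 0.46 (SE), adjusted p = 0.00014 with BATFRV, and 1.11 ± 0.46 (SE), adjusted p = 0.25 with Foxp3RV. This is the intragenic site that was open in eTreg and Teff and nearly closed in resting cells. Tigit peak 11 had 168 and 193 with Foxp3BATFRV, 106 and 109 with BATFRV and 33.3 and 30.7 with Foxp3RV, against 52.7 and 43 with mockRV, and changes of 1.90, 1.16 and -0.56, of which the last was not called. Tigit peak 6 had 189 and 212 with Foxp3BATFRV, 100 and 102 with BATFRV and 58.1 and 49.1 with Foxp3RV, against 45.3 and 37.1 with mockRV. In both Tigit peaks the Foxp3BATFRV libraries were highest, the BATFRV libraries came next, and the Foxp3RV libraries were not called against mockRV. Tigit peak 15 differed: it had 179.6 and 259 with Foxp3BATFRV, 86.6 and 62.4 with BATFRV and 116 and 103 with Foxp3RV, against 74.8 and 69.4 with mockRV, and was called with Foxp3BATFRV and with neither construct alone (1.57 ± 0.28 (SE), adjusted p = 7.9e-05). Tigit peak 8, the widest effector change, was at 145 and 245 with Foxp3BATFRV, 94 and 109 with BATFRV and 106 and 106 with Foxp3RV, against 90.7 and 126 with mockRV, and none of its changes was called.

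Havcr2 reached its highest levels of the DKO groups with both factors. Havcr2 peak 1 at the start had 217 and 341 with Foxp3BATFRV, 87.8 and 50.9 with BATFRV and 45.2 and 39.9 with Foxp3RV, against 19 and 46.9 with mockRV. Its change with Foxp3BATFRV was 3.14 ± 0.60 (SE), adjusted p = 0.00027. Havcr2 peak 2 had 230.1 and 330.5 with Foxp3BATFRV, 111 and 142 with BATFRV and 43 and 38.4 with Foxp3RV, against 58 and 27.4 with mockRV, and was called with Foxp3BATFRV (2.76 ± 0.34 (SE), adjusted p = 3.2e-07) and with BATFRV (1.63 ± 0.34 (SE), adjusted p = 0.0025). Against BATFRV, Foxp3BATFRV had Havcr2 peaks 1, 2 and 4 higher, by 2.01, 1.13 and 1.28. The locus mean per peak was 193 ± 39.8 with Foxp3BATFRV, 82.8 ± 4.45 with BATFRV and 41.7 ± 3.05 with Foxp3RV, against 44.9 ± 0.833 with mockRV (SD, n = 2 each). Some sites were almost without reads in mockRV. Tigit peak 2 had 30.1 and 21.9 with Foxp3BATFRV, 8.66 and 2.88 with BATFRV and 1.08 and 0 with Foxp3RV, against 0 and 0.978 with mockRV. That is 50 reads over both Foxp3BATFRV libraries and 1 over both mockRV libraries, a ratio of 51.9 after scaling with a 95% counting interval of 8.90 to 2091. Cd96 peak 2 (chr16:46044429-46044829), deep inside the gene, had 45.6 and 34.5 with Foxp3BATFRV, 9.90 and 5.76 with BATFRV and 4.30 and 4.60 with Foxp3RV, against 1.05 and 0 with mockRV. The 77 reads with Foxp3BATFRV and 1 with mockRV gave a ratio of 80.0 (13.9 to 3199). With BATFRV the ratios were 10.7 (1.52 to 462) at Tigit peak 2 and 14.9 (2.27 to 631) at Cd96 peak 2, and with Foxp3RV 8.73 (1.12 to 393) at Cd96 peak 2. Such intervals cover counting error only.

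Receptor peaks called lower than with mockRV numbered 13 with Foxp3BATFRV, 0 with BATFRV and 2 with Foxp3RV. Cd226 peak 15, the site that was lower in Treg than in conventional cells, had 27.2 and 34.5 with Foxp3BATFRV, 135 and 163 with BATFRV and 63.5 and 62.9 with Foxp3RV, against 173 and 227 with mockRV. Its change was -1.63 ± 0.20 (SE), adjusted p = 3.9e-05 with Foxp3RV, and with Foxp3BATFRV it was -2.65 ± 0.20 (SE), adjusted p = 4.5e-11, while BATFRV was not called (-0.41 ± 0.20 (SE), adjusted p = 0.37). Btla peak 6 had 65.1 and 73.7 with Foxp3BATFRV, 178 and 254 with BATFRV and 96.8 and 124 with Foxp3RV, against 182 and 257 with mockRV, with Foxp3RV at -0.97 ± 0.22 (SE), adjusted p = 0.018 and Foxp3BATFRV at -1.63 ± 0.22 (SE), adjusted p = 1.8e-06. In both sites the libraries with Foxp3RV or Foxp3BATFRV lay below all libraries with BATFRV or mockRV. Pdcd1 peak 10 had 67 and 115 with Foxp3BATFRV, 307 and 419.5 with BATFRV and 188 and 361 with Foxp3RV, against 452 and 499 with mockRV. It fell with Foxp3BATFRV (-2.42 ± 0.27 (SE), adjusted p = 1.7e-07). Cd226 peak 1 had 31.1 and 42.6 with Foxp3BATFRV, 82.9 and 107 with BATFRV and 159 and 169 with Foxp3RV, against 142 and 147 with mockRV. Neither construct alone was called there, and the change with both minus the sum of the single changes was -1.53 ± 0.28 (SE), adjusted p = 0.0077. It was the 1 receptor peak called for such a departure (0.506% of all peaks were called lower and 0.586% higher, 1.09% together), and it held with each of the 8 libraries left out. It was lost when only the 4 DKO groups were fitted without a replicate block, and in the treat test for more than a 1.5-fold change. The Tigit-to-Cd226 ratio of mean score per peak was 4.91 and 5.92 with Foxp3BATFRV, 2.68 and 2.96 with BATFRV and 2.31 and 2.2 with Foxp3RV, against 2.14 and 2.17 with mockRV. The Foxp3BATFRV libraries had the highest ratios, and those with BATFRV came next.

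**Figure D5:**
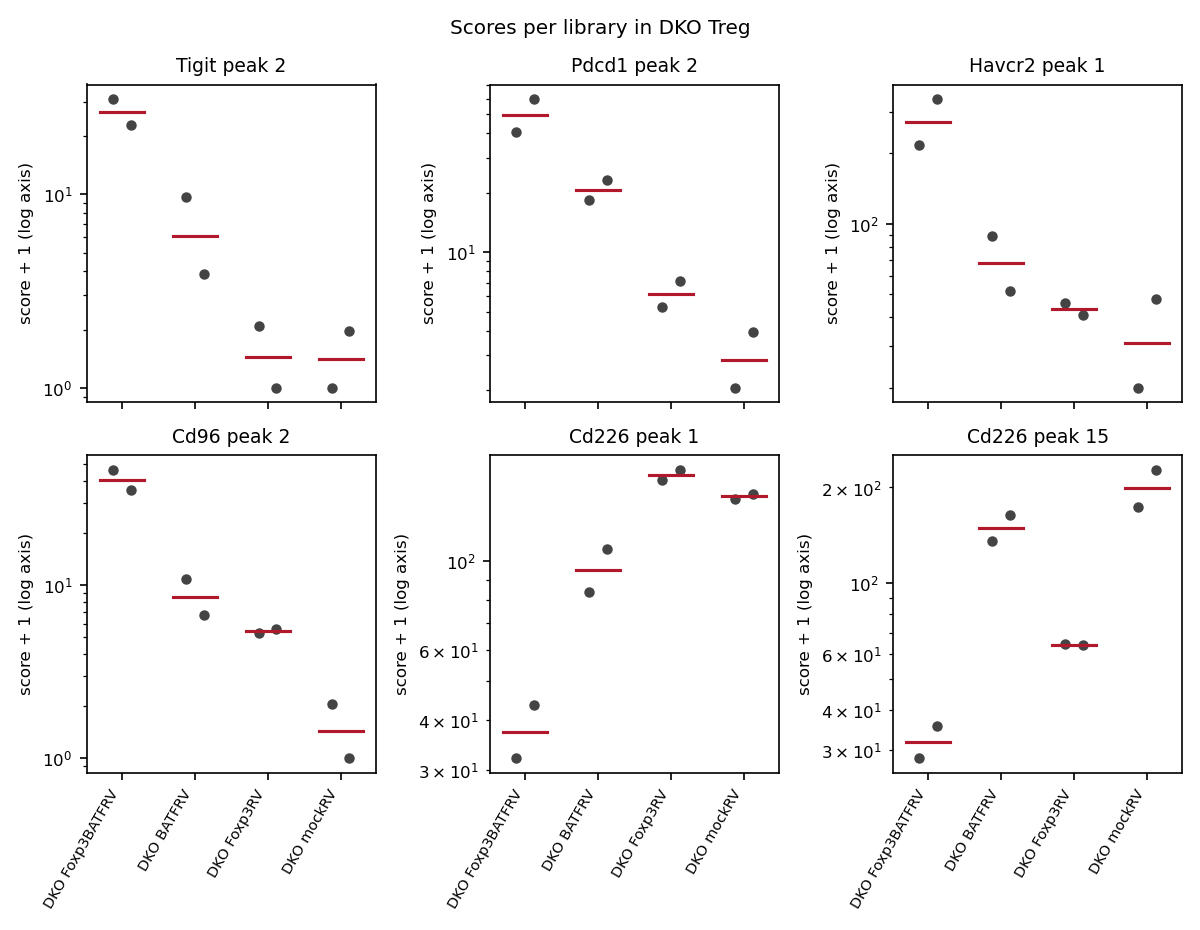
Score + 1 of 6 receptor peaks (log axis) in each library of DKO Treg with Foxp3BATFRV, BATFRV, Foxp3RV or mockRV. Points are libraries and red lines geometric means. Tigit peak 2, Pdcd1 peak 2, Havcr2 peak 1 and Cd96 peak 2 are highest with Foxp3BATFRV, and Cd226 peaks 1 and 15 are lowest with it.

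Set against the single constructs, Foxp3BATFRV gave 17 higher and 12 lower receptor peaks than Foxp3RV (10.6% and 7.54% of all peaks, 18.1% together) and 8 and 11 than BATFRV (7.08% and 7.01% of all peaks, 14.1% together). The second split depended on scaling: quantile scaling gave 5 higher and 12 lower. Cd160 peak 2 at the Cd160 start was called only here among the 14 comparisons, with 11.7 and 17.3 with Foxp3BATFRV, against 36.6 and 26.1 with Foxp3RV (-1.07 ± 0.34 (SE), adjusted p = 0.025). Of the 17 peaks higher with Foxp3BATFRV than with mockRV, 13 were also higher in eTreg than in cTreg, 76.5% of the 17 and 50% of the 26 (61.5% and 40.2% over all peaks). Of the 13 lower ones, 8 were also lower in eTreg, 61.5% of these 13 and 42.1% of the 19 (56.1% and 33.7% over all peaks). Btla peak 4 alone was lower in eTreg (-0.56) and higher with Foxp3BATFRV (0.53). With each library left out in turn, 12 of the higher and 6 of the lower calls of Foxp3BATFRV against mockRV held every time, 10 and 3 against Foxp3RV, and 1 and 5 against BATFRV. For BATFRV against mockRV 2 of 9 held (Pdcd1 peak 2 and Btla peak 4), and for Foxp3RV 1 of 3 (Cd226 peak 15). The counts fell to 4 for BATFRV without mockRV 2, to 1 for Foxp3RV without Foxp3RV 1 or mockRV 2, to 19 against Foxp3RV without Foxp3RV 2, to 10 against BATFRV without BATFRV 2, and the departure from the sum went to 2 peaks without Foxp3RV 1, Foxp3BATFRV 1 or Foxp3BATFRV 2. Myeloid marker peaks summed to 1906 to 2204 with Foxp3BATFRV, 1205 to 1211 with BATFRV and 980 to 981 with Foxp3RV, against 990 to 1217 with mockRV. B cell marker peaks summed to 1013 to 1133 with Foxp3BATFRV, 765 to 779 with BATFRV and 769 to 776 with Foxp3RV, against 559 to 586 with mockRV. The CD8 and NK sum went down, with 4511 to 4670 with Foxp3BATFRV, 4771 to 4783 with BATFRV and 4464 to 4947 with Foxp3RV, against 5080 to 5538 with mockRV. The erythroid sum was 839 to 956 with Foxp3BATFRV, 915 to 1047 with BATFRV and 1007 to 1130 with Foxp3RV, against 1077 to 1122 with mockRV. Their part in these results was not tested.

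Across the 7 ATAC-seq groups the mean score per Tigit peak was 244 ± 0.788 in eTreg and 207 ± 6.04 in Teff. It was 149 ± 3.65 in WT Treg and 149.7 ± 6.19 in cTreg, whose libraries overlapped, and 121 ± 10.4 in BATFKO Treg, 121 ± 6.33 in Tconv and 121 ± 6.22 in Tnaive, whose libraries also overlapped (SD, n = 2 each). Cd226 ran nearly the reverse, with 292 ± 2.26 per peak in Tnaive, 244 ± 28.4 in cTreg and 237 ± 39.1 in Tconv (overlapping), and 199.6 ± 5.29 in BATFKO Treg. The lowest were 179 ± 12.9 in eTreg, 179 ± 14.4 in Teff and 175 ± 4.50 in WT Treg, which overlapped. Btla was highest in Tnaive at 191 ± 0.669 and cTreg at 159 ± 4.30, and had its lowest mean in eTreg at 93.4 ± 10.9, whose libraries overlapped those of WT Treg at 103 ± 4.21 and BATFKO Treg at 104 ± 5.63. Cd96 had 194 ± 9.15 in Tnaive and 108 ± 9.99 in eTreg. Havcr2 had the steepest order of these, with 75.4 ± 2.31 in eTreg, 49.9 ± 6.73 in WT Treg and 8.69 ± 2.36 in Tnaive. Lag3 stayed between 58.1 ± 4.24 in cTreg and 76 ± 2.92 in eTreg, and Pdcd1 between 272 ± 27.7 in BATFKO Treg and 367 ± 14.9 in Tnaive.

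Among peaks of other genes, those whose log2(score + 1) followed a receptor's most variable peak most closely over the 26 libraries were picked as a description. Pearson's r ran over libraries that share groups and depth and come from both protocols. Differences between the protocols therefore enter r and the choice of the most variable peak, and their part was not tested. Pdcd1 peak 2 was nearest to a peak at Reps1 (r = 0.945), Havcr2 peak 2 to Tnip2 (r = 0.959), Tigit peak 2 to Mettl21c (r = 0.955) and Tox (r = 0.946), Btla peak 3 to Lonp2 (r = 0.964), Cd226 peak 4 to Sugct (r = 0.977), Lag3 peak 5 to Cd83 (r = 0.928), Cd160 peak 2 to Tacc2 (r = 0.893) and Cd96 peak 2 to Ankrd6 (r = 0.876).

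The ligands of these receptors are mainly displayed by other cells, yet their genes carry peaks in T cells. Of 69 peaks at 16 ligand genes, 17 were higher and 12 lower in eTreg against cTreg, 11 higher and 17 lower in Teff against Tnaive and 7 higher and 11 lower with Foxp3BATFRV against mockRV. Those are 24.6% and 17.4% in eTreg, 15.9% and 24.6% in Teff, and 10.1% and 15.9% with Foxp3BATFRV, where 19.7% and 17.4%, 20.7% and 19.6%, and 12.9% and 10.5% of all peaks were called. The median log2 change of the ligand peaks in eTreg was -0.0314, against 0.0263 over all peaks. A peak at Cd274, which encodes PD-L1, averaged 108 ± 25.7 with Foxp3BATFRV and 18.9 ± 0.666 with Foxp3RV (SD, n = 2 each), a change of 2.43 ± 0.34, adjusted p = 5.7e-06, and one averaged 12.4 ± 3.97 in Foxp3R397W Treg and 38.4 ± 6.10 in the control (-1.58 ± 0.34, adjusted p = 0.0092). A peak at Lgals9, encoding the TIM-3 ligand galectin-9, averaged 8.56 ± 1.14 in eTreg and 47.8 ± 5.27 in cTreg (-2.35 ± 0.24, adjusted p = 6.5e-09). Other co-signalling receptors had 197 peaks at 19 genes, with 42 higher and 54 lower in eTreg, 53 higher and 48 lower in Teff, 49 higher and 14 lower in WT Treg against Tconv and 39 higher and 16 lower with Foxp3BATFRV. The shares were 21.3% and 27.4% in eTreg, 26.9% and 24.4% in Teff, 24.9% and 7.11% in WT Treg (10.1% and 9.92% of all peaks), and 19.8% and 8.12% with Foxp3BATFRV, with a median in eTreg of -0.14. Klrg1, a receptor of terminally differentiated cells, had a peak at 131 ± 43.2 in eTreg and 5.31 ± 1.28 in cTreg (4.36 ± 0.34, adjusted p = 4.8e-11). Cd28, the main costimulatory receptor of naive cells, had one at 7.39 ± 0.518 in eTreg and 142 ± 7.66 in cTreg (-4.09 ± 0.45, adjusted p = 3.5e-08), and Icos, a costimulator of effector cells, one at 192 ± 14.1 with Foxp3BATFRV and 5.12 ± 1.71 with mockRV (5.0 ± 1.13, adjusted p = 0.0036). Ctla4, an inhibitory receptor bound by the ligands of Cd28, had a peak at 196 ± 96.6 in BATFKO Treg and 602 ± 58.1 in WT Treg (-1.71 ± 0.27, adjusted p = 0.00023). Signalling partners had 189 peaks at 16 genes, with 45 higher and 33 lower in eTreg, 57 higher and 38 lower in Teff and 20 higher and 45 lower with Foxp3BATFRV, which is 23.8% and 17.5%, 30.2% and 20.1%, and 10.6% and 23.8% of them, with a median in eTreg of 0.0790. The phosphatase gene Ptpn11, whose product binds the PD-1 tail, had a peak at 71.1 ± 4.49 in eTreg and 0.889 ± 1.26 in cTreg (5.43 ± 0.48, adjusted p = 5.0e-10). Transcription factor genes of exhausted or effector T cells had 349 peaks at 18 genes, with 87 higher and 98 lower in eTreg, 101 higher and 102 lower in Teff, 61 higher and 68 lower with Foxp3BATFRV, 2 higher and 7 lower in Foxp3R397W Treg and 0 higher and 13 lower in BATFKO Treg. The shares were 24.9% and 28.1% in eTreg, 28.9% and 29.2% in Teff, 17.5% and 19.5% with Foxp3BATFRV, 0.573% and 2.01% in Foxp3R397W Treg (0.776% and 1.85% of all peaks) and 3.72% lower in BATFKO Treg (1.43% of all peaks), with a median in eTreg of -0.0932. Tox2 had a peak at 189 ± 2.50 in eTreg and 5.31 ± 1.28 in cTreg (4.93 ± 0.37, adjusted p = 2.4e-11), and Maf one at 274 ± 100 with Foxp3BATFRV and 8.17 ± 1.87 with mockRV (4.87 ± 0.37, adjusted p = 5.5e-11). The peaks named are those with the largest called changes of each list.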

How the data were processed

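Libraries of sorted mouse T cells were made by ATAC-seq or omniATAC-seq. The authors deposited normalised accessibility per peak, a non-negative signal, in 2 tables, of which the 26-library table was used and the 22-library table served as an alternative. Per the submitters' processing notes the tools included edgeR (versions 3.38.4 and 3.36.0), DiffBind (versions 3.4.11 and 3.0.15), MACS2 2.2.7.1 and Bowtie2 2.4.1, with mm10 as the build. What each did, and with which parameters, the notes as used here do not say. In the deposited signal, 100% of the values were whole reads times 1 factor per library, to within 0.02 reads. Groups were taken from the sample titles, and the columns named Foxp3WTTreg were read as the control of Foxp3R397W Treg. Peaks were assigned to the nearest RefSeq protein-coding gene body within 100 kb. limma 3.58.1 in R 4.3.3 (lmFit, contrasts.fit, eBayes with trend and robust options) was fitted to log2(score + 1) over all 69316 peaks and 13 groups without a replicate block, and peaks were called at a Benjamini-Hochberg adjusted p under 0.05 in 14 comparisons. The test was also run on simulated data with known changes. Alternatives were a pseudocount of 5, a mean score of at least 10, quantile scaling, edgeR 4.0.16 (quasi-likelihood) on the recovered reads, only the groups of a contrast, a replicate block, a test against a 1.5-fold change (treat), the 22-library table and each library left out. A block within the DKO groups alone was added after seeing the data. Named peaks were, per receptor gene, the one at the start, the one with the highest mean and the one with the widest range, the called peaks with the largest change, up to 3 genes most like the widest peak, and the largest called change of each other list. The members and lists were chosen with earlier results of these data known. Depth limits precision: the receptor peaks held 5391 to 20800 reads per library. Python 3.11.15, pandas 2.3.3 and matplotlib 3.10.9 made the tables and plots.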

Additional observations from a re-analysis of the deposited data

Results flagged for a closer look

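3 interactions stood out because an effect differed between groups by a test of the difference itself. On the log2 scale, the effector step of Pdcd1 peak 8 was smaller in Treg than in conventional cells. The steps were 1.74 and 3.12, and the difference was -1.38 ± 0.37 (SE), adjusted p = 0.029 in limma. Its mean score rose from 84.0 (cTreg) to 283 (eTreg) and from 9.63 (Tnaive) to 90.1 (Teff). Measured in score units, the rise was thus larger in Treg, and the conventional step began from a low score. Both eTreg libraries were above both cTreg libraries and both Teff libraries above both Tnaive libraries, so the direction was shared and the size differed. The call was lost in 7 of 8 fits that left out a library, with adjusted p between 0.065 and 0.14 there.

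Tigit peak 10 had a step of -0.24 in Treg and 0.74 in conventional cells, a difference of -0.98 ± 0.24 (SE), adjusted p = 0.013 in limma. The call was lost in 3 of 8 such fits, those without eTreg 2, Tnaive 1 or Teff 2, with adjusted p between 0.054 and 0.091.

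At Cd226 peak 1 the change with Foxp3BATFRV lay below the sum of the changes with BATFRV (-0.61) and Foxp3RV (0.18), a difference of -1.53 ± 0.28 (SE), adjusted p = 0.0077 in limma, and the call was kept in all 8 fits that left out a library. It was lost when only the 4 DKO groups were fitted without a replicate block, and in the treat test. With 2 libraries in every group, single libraries could not be tested as standing apart from their group.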

How the results depend on the processing

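The calls depended most on the names of the libraries. Of 265 calls of a receptor peak in the 14 comparisons, 254 kept their call and direction in edgeR, 255 with a pseudocount of 5, 264 above a mean score of 10, 246 after quantile scaling, 227 with only the groups of a contrast, 265 with the replicate block and 121 in the treat test, but 34 of the 174 that could be compared in the 22-library table. Of these 34, 27 were among the 29 calls in WT Treg against Tconv, and 2 were the 2 calls in BATFKO Treg. Both tables name those libraries alike. The other 5 were calls in Foxp3R397W Treg, where the other names set the cTreg libraries against the eTreg libraries, so they are no check. Within the DKO groups alone, with a block, 80 of 91 were kept. In all, edgeR made 294 calls. Within 50 kb the rule finds 73 of the 74 peaks, and 46 overlap a gene body.

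Changes that reversed in the 22-library table under its own names, written as a log2 value and the gene with its peak number, were these. In eTreg against cTreg: 1.03 at Btla 3, 0.27 at Btla 8, -0.89 at Cd226 11, 0.30 at Cd226 4, 0.23 at Cd226 7, 0.50 at Cd96 5, -0.69 at Havcr2 2, -0.35 at Havcr2 3, -0.78 at Havcr2 4, 0.64 at Lag3 1, -1.55 at Pdcd1 2, -2.66 at Tigit 2, -1.74 at Tigit 8, -0.75 at Tigit 9. In Teff against Tnaive: -0.67 at Btla 10, 0.50 at Btla 3, -0.92 at Cd226 11, 0.53 at Cd226 4, 0.12 at Cd226 7, 0.44 at Cd96 5, -1.50 at Havcr2 1, -0.92 at Havcr2 2, -0.39 at Havcr2 3, -0.92 at Havcr2 4, -1.18 at Pdcd1 2, -2.09 at Tigit 2, -1.65 at Tigit 8, -0.74 at Tigit 9. In cTreg against Tnaive: -0.0758 at Btla 4, 0.46 at Cd226 15, -0.0988 at Havcr2 1, -0.0611 at Havcr2 2, -0.12 at Pdcd1 8. In eTreg against Teff: 0.0240 at Cd226 15, 0.11 at Lag3 1, -0.0907 at Pdcd1 8, -0.32 at Tigit 2. The difference of the effector steps reversed to 0.0255 at Pdcd1 8, and Foxp3R397W Treg against its control to 0.57 at Btla 4. By construction these comparisons use other libraries. The values for eTreg against cTreg are those of the libraries used here as Foxp3R397W Treg and its control. That table called 35 receptor peaks in WT Treg against Tconv and 4 in BATFKO Treg, whose libraries both tables name alike. It called 10 in eTreg against cTreg, 15 in Teff against Tnaive, 0 in cTreg against Tnaive and 0 in eTreg against Teff. For the difference of the steps it called 0, and in Foxp3R397W Treg 49.

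The treat test, which asks for more than a 1.5-fold change, called 11 in WT Treg against Tconv, 26 and 31 in the effector comparisons, 9 in cTreg against Tnaive, 5 in eTreg against Teff, 1 in BATFKO Treg, 0 in Foxp3R397W Treg, 1 with Foxp3RV, 2 with BATFRV, and with Foxp3BATFRV 17 against mockRV, 12 against Foxp3RV and 6 against BATFRV. It called 0 and 0 in the tests of a difference. With only the groups of a contrast the counts were 30 in eTreg against Teff, 9 for the difference of the steps, 6 in BATFKO Treg, 15 in Foxp3R397W Treg, 1 with Foxp3RV, 18 with Foxp3BATFRV against Foxp3RV and 0 for the departure from the sum. The difference of the steps gave 4 with a pseudocount of 5 and 4 after quantile scaling. BATFKO Treg gave 5, 8 and 5 with the pseudocount, quantile scaling and edgeR. Foxp3R397W Treg gave 13 in edgeR, and quantile scaling gave 1 with Foxp3RV and 5 with BATFRV. The cause was not tested.

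Same-numbered libraries deviated together with r of 0.0435 to 0.0779 in the steady-state groups, 0.162 in the BATFKO pair, 0.327 in the Foxp3R397W pair and 0.147 to 0.215 in the DKO groups, and nothing in the labels ties a number to a shared animal or day, so the numbers were not taken as pairs. With the replicate block the count with Foxp3RV went to 5, with the block in the DKO groups alone the departure from the sum went to 5, and no call of the fit without it was lost under the block over all groups. With 1 library left out the counts were 19 to 23 in WT Treg against Tconv, 34 to 39 in eTreg against cTreg, 37 to 42 in Teff against Tnaive, 13 to 18 in cTreg against Tnaive, 11 to 14 in eTreg against Teff, 0 to 3 for the difference of the steps, 1 to 3 in BATFKO Treg, 1 to 2 in Foxp3R397W Treg, 1 to 3 with Foxp3RV, 4 to 7 with BATFRV, 22 to 28, 19 to 26 and 10 to 15 with Foxp3BATFRV against mockRV, Foxp3RV and BATFRV, and 1 to 2 for the departure. No called change reversed in sign in these fits. The lone library left in a group was assumed to vary like the other groups. Peaks with few reads, such as Tigit peak 2 and Cd96 peak 2 in DKO Treg, have wide counting intervals, and groups of 2 libraries limit every test.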

Other observations

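The 22-library table holds 4 libraries that the other table lacks, named Teff and Tnaive there. If the names of the 26-library table hold, the labels leave only Foxp3KO Treg and their WT Treg control for these 4. Which of them would be the knockout was not tested. At Tigit peak 8 those named Teff had scores of 77.2 and 114, against 287 and 305 in those named Tnaive. At Tigit peak 15 they had 71.8 and 121, against 258 and 262, and at Pdcd1 peak 8 120.0 and 130.3, against 314 and 304. Cd226 peak 15 ran the other way, with 202 and 179 in those named Teff, against 114 and 93.7 in those named Tnaive. At these 4 sites the libraries named Teff were lower at Tigit and Pdcd1 and higher at Cd226 peak 15 than those named Tnaive. These 4 libraries are the Teff and Tnaive arms of the comparisons with Teff or Tnaive given above under the names of that table, which was normalised separately, and enter none under the names of the 26-library table.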
